A study of Mus musculus with 8 samples.

Results

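The expression of 45 imprinted genes was examined in mouse neurospheres with and without Cbx3. The genes were taken from a list of known imprinted loci, and their probes were found through the RefSeq accession printed for each array probe. Of the 45 genes, 43 had at least 1 matched probe, 69 probes in all, among 20660 gene symbols and 55681 non-control probes on the array. H19 and Rian had no matched probe. By the allele that textbook annotation gives as expressed, 21 of the listed genes are paternal, 21 maternal and 3 depend on isoform or tissue (Grb10, Inpp5f and Gnas). They lie in 20 imprinted clusters or single loci.

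Neurospheres are clusters of neural stem and progenitor cells. Per the labels, each sample came from the ganglionic eminence of a single E14.5 embryonic brain and was carried to quaternary spheres in Neurobasal medium with B-27, EGF and bFGF, with 7 days of culture. There were 3 arrays of wild-type cells in floating culture, 3 of HP1gamma knockout cells in floating culture and 2 of knockout cells in adherent culture, called WT and KO here. The stated protocol uses low-attachment plates for every sample, and neither the adherent culture nor the way the knockout allele was made is described further.

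Imprinted genes are expressed mainly or solely from the copy inherited from one parent. DNA methylation laid down in the egg or the sperm marks an imprinting control region, which sets the choice for neighbouring genes, often through a long non-coding RNA or an insulator. The mark is kept through development by ZFP57, a zinc finger protein that binds a methylated hexamer, together with TRIM28, SETDB1 and DNA methyltransferases. HP1gamma, the product of Cbx3, is a chromatin reader of methylated histone tails. Many imprinted genes act on fetal growth, and several are active in neural progenitors and in the brain. The arrays measured the sum of both alleles, so they hold no value for either parental copy.

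All levels below are log2 processed signal minus the 75th percentile of that array, so 0 marks the 75th percentile and 1 unit is a doubling. The Cbx3 probe with the higher mean read 5.83, -2.17 and 5.95 on the WT floating arrays labelled 1, 2 and 3. It read -1.86, -2.76 and -1.75 on KO floating 1, 2 and 3, and -2.03 and 5.91 on the KO adherent arrays labelled 1 and 2. The array labelled WT floating 2 thus had a low Cbx3 level and the array labelled KO adherent 2 a high one, against their labels. Each comparison was therefore made as labelled and again without these 2 arrays. A further comparison without them joined KO floating 1, 2 and 3 with KO adherent 1 and set these 4 arrays against WT floating 1 and 3. Genotype and culture cannot be told apart for KO adherent 1 in it. KO floating 1 and KO adherent 1 carry the same replicate number, and the labels do not say whether their cells came from the same embryo.

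The 8 arrays lay on 1 slide. The 75th percentile of processed signal ran from 616 to 865, and 44.5% to 55.4% of spots were well above background. The number of arrays limits the precision. Of 10 neural stem cell markers, 9 were above background on all 8 arrays. Among markers of the ganglionic eminence and its inhibitory neurons, Gad1 was well above background on 8 arrays, Dlx2 on 7 and Dlx1 on 6, and Gsx2, Dlx5 and Gad2 on 0. In bulk samples, fewer cells of a type and less RNA per cell cannot be told apart.

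Most of the imprinted genes were measurable in these cells. By 1 or more probes, 29 genes were well above background on all 8 arrays and 8 on 1 to 7 arrays. The 6 genes not well above background on any array were Igf2 (a fetal growth factor), Calcr (the calcitonin receptor), Klf14 (a transcription factor), Magel2 (a ubiquitin ligase regulator of the Snrpn cluster), Rtl1 (a retrotransposon-derived gene) and Slc38a4 (an amino acid transporter). For these genes the arrays give only an upper bound. Dcn was above background only on WT floating 1, at -2.72. Dio3, a thyroid hormone deiodinase, was above it only on KO floating 1, at -4.31, and Phlda2 only on KO floating 1, at -2.03. The Cd81 probe, for a tetraspanin of the Kcnq1 cluster, read 7.92 to 8.38 over the 8 arrays, and that of Tssc4 in the same cluster varied least of all members, with an SD of 0.13. The largest SDs over the 8 arrays among genes above background throughout were those of Cdkn1c (1.27), Peg10 (1.22), Nnat (1.01) and Meg3 (0.90).

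As labelled, 0 of 32 tested imprinted genes differed between KO and WT floating neurospheres. The background was 0.00442% of 22647 features past a limma adjusted p of 0.05. Of the 32 genes, 1 had an unadjusted p under 0.05 (all features: 391 of 22647), and the smallest limma adjusted p was 0.813. That gene was Plagl1, a zinc finger transcription factor known to slow proliferation and to regulate other imprinted genes. Its mean was 0.80 ± 0.61 (SD, n = 3) in WT floating and -0.04 ± 0.05 (SD, n = 3) in KO floating arrays, and KO minus WT was -0.84 (SE 0.31, limma adjusted p = 0.813). The arrays of the 2 groups did not overlap for 4 of 32 genes (Nap1l5, Plagl1, Commd1 and Impact), against 8.4% of all features. The median difference of the 32 genes was -0.06, and that of all features was -0.03.

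Adherent culture gave no call either. Between KO adherent and KO floating arrays 0 of 32 genes passed (limma; background 0%), with 0 at an unadjusted p under 0.05. The smallest limma adjusted p was 0.99, and 12.8% of all features did not overlap between these groups, as did 3 of the 32 genes (Ndn, Plagl1 and Impact). For Nnat the difference was -0.99 (SE 0.80), with 1 adherent array inside the floating range, at 4.03, and the array labelled KO adherent 2 below it, at 2.18. Between KO adherent and WT floating arrays 0 of 32 genes passed (limma; background 0.00442%), with 0 at an unadjusted p under 0.05. The adherent group holds 1 of the arrays whose Cbx3 level goes against its label.

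Without the 2 discordant arrays and with the cultures kept apart, 0 of 33 imprinted genes differed between KO and WT floating (limma; background 0.177%). Here 11 of the 33 had an unadjusted p under 0.05 in limma, beside 6563 of 25962 features. The smallest limma adjusted p of the 33 was 0.0667, for Plagl1. Without KO adherent 1, Plagl1 passed and the count was 1 of 33, beside 462 of 21473 features. That array is a group of its own in this fit, so it adds nothing to the spread estimated for a feature. It enters through the probe filter, and so through the set of features tested. The arrays did not overlap for 19 of the 33 genes, against 51.1% of all features.

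With KO floating 1, 2 and 3 and KO adherent 1 set against WT floating 1 and 3, 8 of 33 imprinted genes (24.2%) passed the threshold. The background was 17.3% of 21463 features (limma adjusted p under 0.05). Of the imprinted genes, 3 were higher in KO (Nnat, Asb4 and Kcnq1ot1; 8.99% of all features) and 5 were lower (Plagl1, Peg10, Inpp5f, Igf2r and Grb10; 8.35% of all features). With only probes above background on every array, which leaves out Asb4, Kcnq1ot1 and Grb10, 5 of 29 imprinted genes passed and 3373 of 18898 features did. The arrays did not overlap for 19 of 33 genes, against 53.4% of all features. The median difference was -0.08 and that of all features -0.07, and the median size of the differences was 0.30 against 0.40 for all features. Without KO adherent 1 the count was 1 of 33 (Plagl1), beside 462 of 21473 features. Without KO floating 1 it was 2 of 33 (Asb4 and Plagl1), beside 697 of 21482 features. Without KO floating 3 it was 10 of 33, beside 5026 of 21909 features, so the count over all features moved too. Leaving out WT floating 1 or 3 leaves 1 WT array, so no count is given for it.

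**Figure D1:**
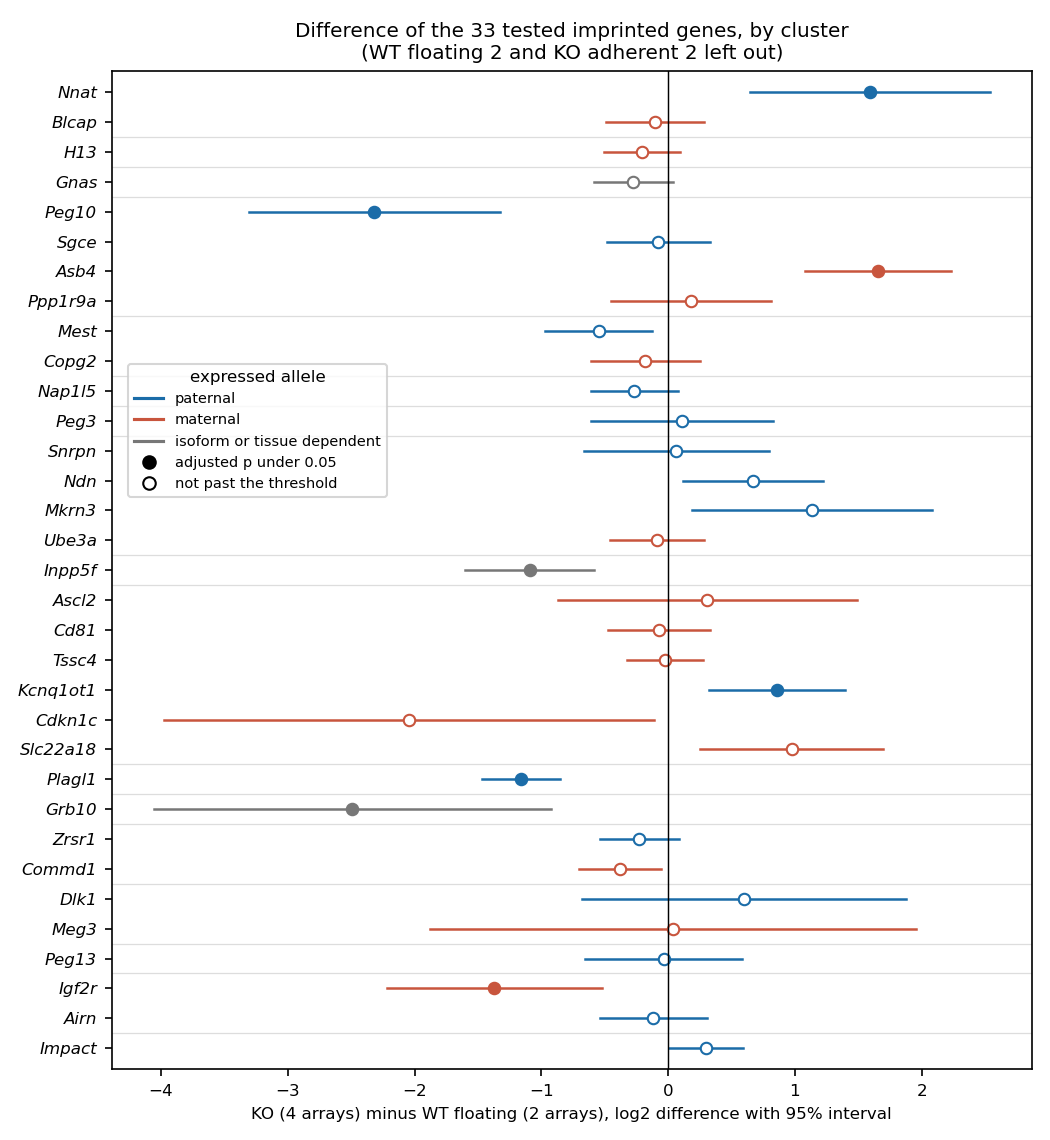
Difference between the 4 KO arrays and WT floating 1 and 3 for the 33 tested imprinted genes, on the log2 scale (x axis), with 95% intervals from limma; genes (y axis) are ordered by cluster, colours give the expressed allele, and filled points have an adjusted p under 0.05. Of the 8 filled points, Nnat, Asb4 and Kcnq1ot1 lie above 0 and the 5 others below it. Asb4, Kcnq1ot1 and Grb10 were not above background on 1 or more arrays of their lower group, so the size of their differences is uncertain.

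The start regions of the called genes were compared for CpG content and for the ZFP57 hexamer, since methylation of such sites marks imprinting control regions. RefSeq windows of 300 bases (250 before and 50 after a gene start, GRCm38.p6) were available for 35 of the 45 genes, 54 windows in all, and for 7 of the 8 called genes. The hexamer is TGCCGC, read on both strands, so that its reverse complement GCGGCA counts too. At least 1 hexamer lay in 12 of the 54 windows (22.2%), in 3 of the 9 windows of called genes, in 7 of the 32 windows of tested genes that did not pass, and in 11.6% of all 32851 windows. The median number of CpG sites was 15 for windows of called genes, 16.5 for those of tested genes that did not pass and 7 for all windows. The windows of Nnat (chr2:157559828-157560127, plus strand) and Plagl1 (chr10:13090582-13090881, plus strand) are printed because they hold 1 hexamer each, with 17 and 26 CpG sites. The third such window, 1 of 2 windows of Grb10 (chr11:12037371-12037670, minus strand), holds 1 hexamer and 45 CpG sites. Those of Kcnq1ot1 (chr7:143296498-143296797, minus strand) and Igf2r (chr17:12769657-12769956, minus strand) are printed for contrast, with 0 hexamers and 9 and 34 CpG sites. Capitals mark the hexamer, and each window is written 5′ to 3′ on the strand of its gene.
Nnat: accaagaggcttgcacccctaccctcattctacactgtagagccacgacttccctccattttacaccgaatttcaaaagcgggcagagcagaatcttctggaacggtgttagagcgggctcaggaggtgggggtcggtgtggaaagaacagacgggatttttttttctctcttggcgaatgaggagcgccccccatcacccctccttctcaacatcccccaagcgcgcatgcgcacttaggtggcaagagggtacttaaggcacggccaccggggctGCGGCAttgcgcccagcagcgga
Plagl1: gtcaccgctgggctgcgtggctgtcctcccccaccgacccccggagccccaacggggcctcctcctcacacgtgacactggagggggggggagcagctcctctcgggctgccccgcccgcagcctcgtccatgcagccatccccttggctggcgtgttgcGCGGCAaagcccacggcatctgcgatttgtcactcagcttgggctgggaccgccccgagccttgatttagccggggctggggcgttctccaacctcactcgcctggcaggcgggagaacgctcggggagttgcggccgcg
Grb10: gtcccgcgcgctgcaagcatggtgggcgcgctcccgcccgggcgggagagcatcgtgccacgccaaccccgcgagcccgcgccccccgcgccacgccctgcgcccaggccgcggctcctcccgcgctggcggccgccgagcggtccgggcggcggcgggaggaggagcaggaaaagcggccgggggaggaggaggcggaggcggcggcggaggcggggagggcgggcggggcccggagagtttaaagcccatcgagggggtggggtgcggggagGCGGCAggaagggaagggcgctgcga
Kcnq1ot1: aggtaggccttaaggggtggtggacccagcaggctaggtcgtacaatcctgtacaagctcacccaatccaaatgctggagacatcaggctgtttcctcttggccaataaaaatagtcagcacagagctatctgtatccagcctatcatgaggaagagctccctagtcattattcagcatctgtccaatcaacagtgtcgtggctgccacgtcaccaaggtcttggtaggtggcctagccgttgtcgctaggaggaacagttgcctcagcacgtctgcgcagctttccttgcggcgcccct
Igf2r: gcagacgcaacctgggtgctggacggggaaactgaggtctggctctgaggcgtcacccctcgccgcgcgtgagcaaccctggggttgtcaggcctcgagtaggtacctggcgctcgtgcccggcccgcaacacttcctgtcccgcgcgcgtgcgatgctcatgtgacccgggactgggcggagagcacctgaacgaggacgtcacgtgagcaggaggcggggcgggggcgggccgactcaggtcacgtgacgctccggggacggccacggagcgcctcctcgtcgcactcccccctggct
A match describes letters in these windows, which lie at gene starts and need not cover an imprinting control region. Whether they cover one was not tested, and no binding was measured. Of the genes with a hexamer in a window, Nnat rose and Plagl1 and Grb10 fell. Of the 2 genes printed without one, Kcnq1ot1 rose and Igf2r fell.

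Nnat, on chromosome 2, encodes neuronatin, a small membrane protein of the endoplasmic reticulum made in developing neural tissue. Its probe read 2.59, 4.44 and 2.39 on the WT floating arrays labelled 1, 2 and 3, 3.98, 4.91 and 3.40 on KO floating 1, 2 and 3, and 4.03 and 2.18 on the KO adherent arrays labelled 1 and 2. As labelled, the WT and KO arrays overlapped. Without the 2 discordant arrays all 4 KO arrays lay above both WT arrays, with means of 4.08 ± 0.63 (SD, n = 4) and 2.49 ± 0.14 (SD, n = 2). Nnat rose by 1.59 (SE 0.39, 3.01-fold, limma adjusted p = 0.0427). Blcap, the maternally expressed host gene that encloses Nnat, read 1.03, 1.0 and 1.17 on the WT floating arrays labelled 1, 2 and 3. It read 0.96, 0.96 and 1.25 on KO floating 1, 2 and 3, and 0.82 and 1.12 on the KO adherent arrays labelled 1 and 2. The groups overlapped for Blcap, and its difference was -0.10 (95% interval -0.50 to 0.29; limma adjusted p = 0.655).

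In the Peg10 cluster on chromosome 6, 1 gene was higher, 1 was lower and 2 did not pass, and Calcr was not measurable. Peg10 is a retrotransposon-derived, paternally expressed gene needed in the placenta. It read -0.37, -2.47 and -0.35 on the WT floating arrays labelled 1, 2 and 3, -2.63, -3.24 and -1.77 on KO floating 1, 2 and 3, and -3.09 and -0.59 on the KO adherent arrays labelled 1 and 2. WT floating 1 and 3 and the array labelled KO adherent 2 were the 3 highest, so the labelled groups overlapped. Without the discordant arrays, Peg10 fell by 2.32 (SE 0.41, 4.99-fold, limma adjusted p = 0.0225), from -0.36 ± 0.01 (SD, n = 2) in WT to -2.68 ± 0.66 (SD, n = 4) in KO. Asb4, a maternally expressed substrate adaptor of a ubiquitin ligase, went the other way. Its probe read -3.59, -1.49 and -3.52 on the WT floating arrays labelled 1, 2 and 3, -1.86, -1.44 and -2.25 on KO floating 1, 2 and 3, and -2.06 and -2.88 on the KO adherent arrays labelled 1 and 2. WT floating 3 was not well above background. Asb4 rose, with a fitted difference of 1.66 (SE 0.24, limma adjusted p = 0.0144). It passed the probe filter only through the KO group, where it is high, and 1 of 2 WT arrays was above background, so no exact fold is given. A second Asb4 probe, above background on 2 arrays, did not pass the filter and was not tested. That probe read -3.37 and -4.39 on WT floating 1 and 3. It read -4.59, -4.80 and -4.85 on KO floating 1, 2 and 3, and -4.33 on KO adherent 1, so it did not show the rise. Sgce, the sarcoglycan gene that starts head to head with Peg10, differed by -0.08 (95% interval -0.49 to 0.33; limma adjusted p = 0.756). Ppp1r9a, which encodes the actin-binding protein neurabin, differed by 0.18 (95% interval -0.45 to 0.82; limma adjusted p = 0.635).

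Plagl1, on chromosome 10, had the smallest adjusted p among the imprinted genes. It read 1.07, 0.10 and 1.23 on the WT floating arrays labelled 1, 2 and 3, -0.01, -0.01 and -0.10 on KO floating 1, 2 and 3, and 0.07 and 0.40 on the KO adherent arrays labelled 1 and 2. WT floating 1 and 3 stood above the 6 other arrays, and WT floating and KO floating did not overlap even as labelled. Plagl1 fell by 1.16 (SE 0.13, 2.24-fold, limma adjusted p = 0.00919), from 1.15 ± 0.12 (SD, n = 2) to -0.01 ± 0.07 (SD, n = 4). Inpp5f, on chromosome 7, encodes a phosphoinositide phosphatase, and a shorter variant of it is imprinted in brain. It read -0.57, -1.90 and -1.04 on the WT floating arrays labelled 1, 2 and 3, -2.07, -1.76 and -1.65 on KO floating 1, 2 and 3, and -2.11 and -1.50 on the KO adherent arrays labelled 1 and 2. Inpp5f fell by 1.09 (SE 0.21, 2.13-fold, limma adjusted p = 0.0266), and WT floating 1 and 3 were again the highest arrays. Which variant of Inpp5f the probe reads was not tested.

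Igf2r and Grb10 both restrain growth factor signalling. Igf2r, the maternally expressed receptor that clears IGF2, read 3.87, 2.53 and 3.92 on the WT floating arrays labelled 1, 2 and 3. It read 2.81, 1.87 and 3.14 on KO floating 1, 2 and 3, and 2.30 and 3.66 on the KO adherent arrays labelled 1 and 2. Igf2r fell by 1.37 (SE 0.35, 2.59-fold, limma adjusted p = 0.046), from 3.90 ± 0.03 (SD, n = 2) to 2.53 ± 0.56 (SD, n = 4), and the 4 KO arrays lay below both WT arrays. Grb10 is an adaptor that dampens insulin and IGF receptors, expressed from the maternal copy in most tissues and from the paternal copy in neurons. Its probe read -2.13, -5.15 and -1.88 on the WT floating arrays labelled 1, 2 and 3, -4.83, -3.67 and -3.62 on KO floating 1, 2 and 3, and -5.86 and -3.73 on the KO adherent arrays labelled 1 and 2. Of the 4 KO arrays in the joined comparison, only KO floating 3 was above background, so most KO values are bounds. Grb10 fell, with a fitted difference of -2.49 (SE 0.65, limma adjusted p = 0.0475) and means of -4.49 ± 1.07 (SD, n = 4) and -2.0 ± 0.18 (SD, n = 2). It passed the filter only through the WT group, where it is high, and was not tested with all 8 arrays.

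**Figure D2:**
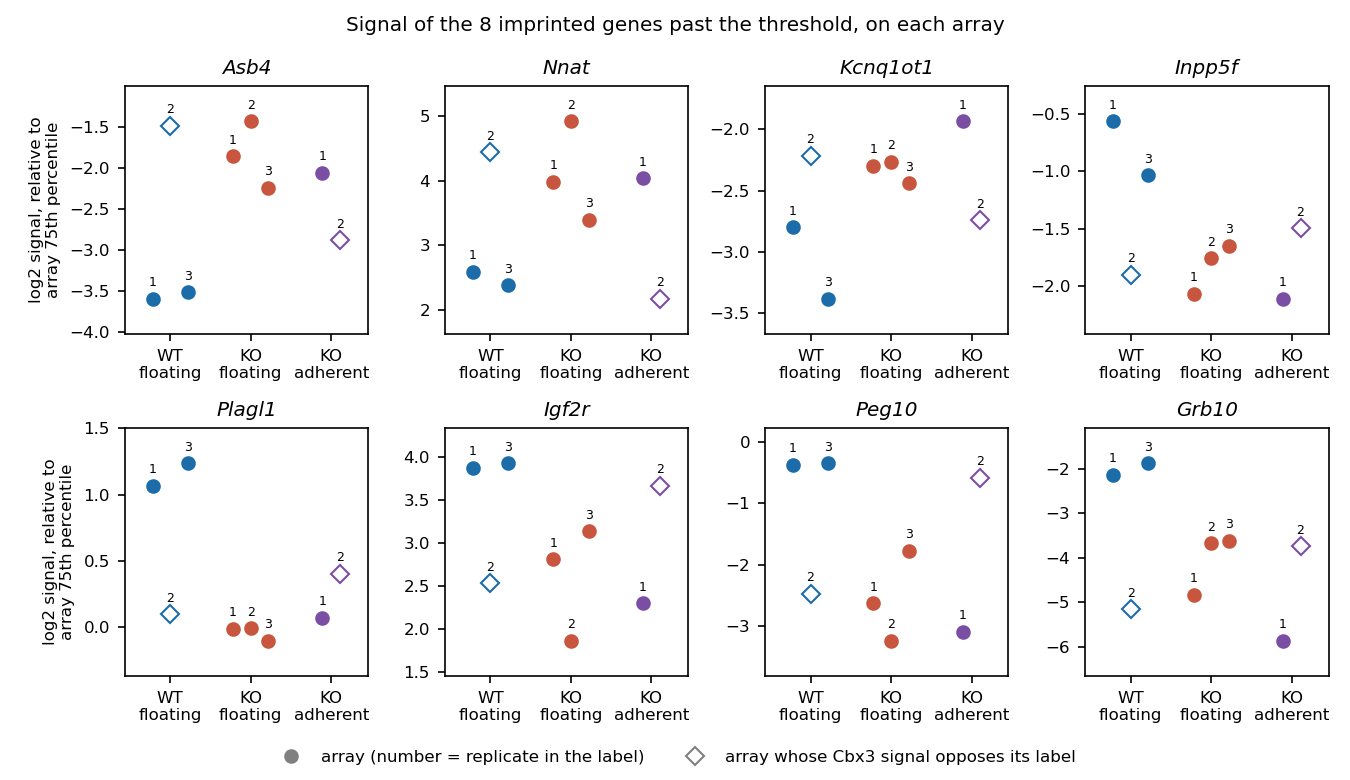
Level of the 8 imprinted genes past the threshold in the joined comparison on each array (log2 processed signal relative to the 75th percentile of the array, y axis), by labelled group (x axis); points are single arrays with their label's replicate number, and open diamonds are the 2 arrays whose Cbx3 level goes against their label. The array labelled WT floating 2 sits apart from WT floating 1 and 3 in the panels other than Kcnq1ot1, for example at 4.44 against 2.59 and 2.39 for Nnat. For Kcnq1ot1 it read -2.22 against -2.80 and -3.38, so the WT arrays were about evenly spaced.

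The Kcnq1 cluster on chromosome 7 had 6 tested genes, of which 1 passed. Kcnq1ot1, the paternally expressed antisense RNA that silences its neighbours, read -2.80, -2.22 and -3.38 on the WT floating arrays labelled 1, 2 and 3. It read -2.30, -2.26 and -2.44 on KO floating 1, 2 and 3, and -1.93 and -2.74 on the KO adherent arrays labelled 1 and 2. WT floating 3 was not well above background. Kcnq1ot1 rose, with a fitted difference of 0.86 (SE 0.22, limma adjusted p = 0.0469). Like Asb4 it passed the probe filter only through the KO group, where it is high, with 1 of 2 WT arrays above background, so no exact fold is given. Cdkn1c, a maternally expressed inhibitor of cyclin-dependent kinases, read 1.66, -0.71 and 0.98 on the WT floating arrays labelled 1, 2 and 3, -0.13, -2.26 and 0.73 on KO floating 1, 2 and 3, and -1.23 and -0.15 on the KO adherent arrays labelled 1 and 2. The 4 KO arrays lay below both WT arrays, but spread widely, and the difference of -2.04 (SE 0.80, 95% interval -3.98 to -0.11) did not pass (limma adjusted p = 0.118). Kcnq1, a potassium channel gene, was above background only on the arrays labelled WT floating 2, at -2.17, and KO floating 2, at -3.25. Slc22a18, a transporter gene, differed by 0.97 (limma adjusted p = 0.0679), Ascl2, a transcription factor gene, by 0.31 (limma adjusted p = 0.662), and Cd81 and Tssc4 by -0.07 and -0.02.

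Airn, the paternal antisense RNA that overlaps and silences Igf2r, read 0.32, 0.16 and -0.05 on the WT floating arrays labelled 1, 2 and 3, 0.22, -0.17 and 0.0 on KO floating 1, 2 and 3, and 0.03 and 0.10 on the KO adherent arrays labelled 1 and 2. The groups overlapped, with a difference of -0.12 (limma adjusted p = 0.644). At Dlk1 and Meg3 on chromosome 12, the single arrays within a genotype differed more than the genotypes did. Dlk1, a paternally expressed transmembrane protein related to Notch ligands, read 3.05, 2.77 and 2.02 on the WT floating arrays labelled 1, 2 and 3, 3.56, 2.10 and 3.82 on KO floating 1, 2 and 3, and 3.04 and 3.71 on the KO adherent arrays labelled 1 and 2. Meg3, a maternal long non-coding RNA, read -0.72, -0.50 and -1.82 on the WT floating arrays labelled 1, 2 and 3, -0.87, -0.66 and -3.06 on KO floating 1, 2 and 3, and -0.35 and -1.32 on the KO adherent arrays labelled 1 and 2. KO floating 3 was the lowest array for Meg3 and the highest for Dlk1. The differences were 0.60 for Dlk1 (limma adjusted p = 0.435) and 0.04 for Meg3 (95% interval -1.87 to 1.95; limma adjusted p = 0.976).

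In the Snrpn cluster on chromosome 7, 0 of 4 tested genes passed by their brightest probe. Snrpn, which encodes a protein of the splicing machinery, read 0.24, 0.66 and -0.23 on the WT floating arrays labelled 1, 2 and 3, 0.45, 0.39 and -0.14 on KO floating 1, 2 and 3, and -0.43 and 0.02 on the KO adherent arrays labelled 1 and 2. Ube3a, a ubiquitin ligase gene that neurons express from the maternal copy, read 0.14, 0.13 and -0.08 on the WT floating arrays labelled 1, 2 and 3, 0.08, 0.01 and -0.06 on KO floating 1, 2 and 3, and -0.26 and 0.15 on the KO adherent arrays labelled 1 and 2. The groups overlapped for both, and their differences were 0.07 for Snrpn (limma adjusted p = 0.885) and -0.09 for Ube3a (limma adjusted p = 0.686). Mkrn3, a RING finger gene whose human form restrains the onset of puberty, differed by 1.13 (limma adjusted p = 0.0904). Ndn, the gene of the growth suppressor necdin, differed by 0.67 (limma adjusted p = 0.0874).

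Mest, a paternally expressed gene of the hydrolase fold, read 4.44, 4.23 and 4.90 on the WT floating arrays labelled 1, 2 and 3, 4.19, 4.23 and 4.09 on KO floating 1, 2 and 3, and 3.97 and 4.60 on the KO adherent arrays labelled 1 and 2. Its neighbour Copg2, a coatomer subunit gene, read 2.07, 1.97 and 2.43 on the WT floating arrays labelled 1, 2 and 3, 2.05, 1.91 and 2.32 on KO floating 1, 2 and 3, and 2.0 and 2.08 on the KO adherent arrays labelled 1 and 2. The differences were -0.55 for Mest (limma adjusted p = 0.0738) and -0.18 for Copg2 (limma adjusted p = 0.485). Zrsr1 is a retrogene of a splicing factor that sits inside Commd1, a gene of copper handling and protein sorting. Zrsr1 read 1.06, 0.69 and 1.10 on the WT floating arrays labelled 1, 2 and 3, 0.81, 0.76 and 0.98 on KO floating 1, 2 and 3, and 0.86 and 0.82 on the KO adherent arrays labelled 1 and 2. Commd1 read 3.78, 3.65 and 3.86 on the WT floating arrays labelled 1, 2 and 3, 3.52, 3.44 and 3.52 on KO floating 1, 2 and 3, and 3.27 and 3.67 on the KO adherent arrays labelled 1 and 2. WT floating 1 and 3 were the highest arrays for both genes, but neither difference passed, at -0.23 (limma adjusted p = 0.24) and -0.38 (limma adjusted p = 0.0964). The single-locus genes Gnas, H13, Nap1l5, Peg3, Peg13 and Impact differed by -0.28, -0.21, -0.27, 0.11, -0.04 and 0.30, and none passed (limma adjusted p of 0.129 to 0.929).

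Of the 25 genes that did not pass, 7 had an unadjusted p under 0.05, and for 18 the whole 95% interval lay within 1 log2 unit of 0. In all, 15 of the 33 tested genes had an unadjusted p under 0.05 in limma, beside 8102 of 21463 features. By expressed allele the called genes divided as follows, beside 8.99% of all features higher and 8.35% lower. Of 16 tested paternally expressed genes, 2 rose and 2 fell, with a median difference of 0.02. Of 14 maternally expressed genes, 1 rose and 1 fell, with a median of -0.08. Of the 3 genes that depend on isoform or tissue, 2 fell, with a median of -1.09. Of the 8 called genes, 5 passed the probe filter through both groups, Asb4 and Kcnq1ot1 through the KO group alone and Grb10 through the WT group alone.

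The values of the 2 discordant arrays, which were not used in the joined comparison, were placed on the scale between its group means, with 0 at the WT mean and 1 at the KO mean. The array labelled WT floating 2 lay nearer the KO mean for 8 of 8 called genes. For the 5 genes that passed the probe filter through both groups it lay at 0.90 (Plagl1) to 1.22 (Nnat). The same held for 97.2% of 3721 called features of any kind. The array labelled KO adherent 2 lay nearer the WT mean for 5 of 8 genes, and 85% of called features. The 3 exceptions were Inpp5f and Plagl1, each at 0.64, and Grb10, whose KO mean rests mostly on arrays not above background. Nnat was at -0.20, Peg10 at 0.10 and Igf2r at 0.17 on that array.

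**Figure D3:**
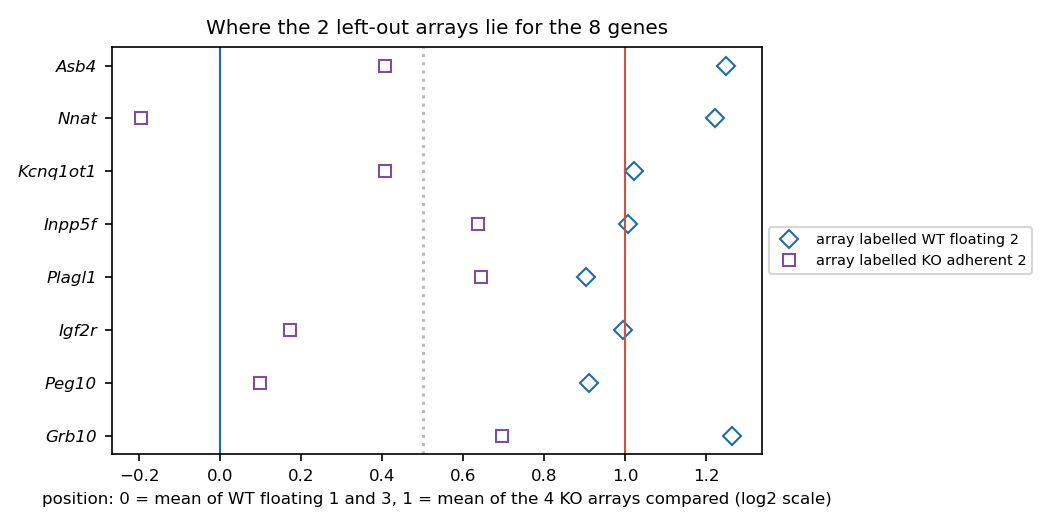
Position of the 2 arrays that were left out (x axis) between the WT mean (0) and the KO mean (1) of the joined comparison, for each of the 8 called imprinted genes (y axis). For the 5 genes that passed the probe filter through both groups, the array labelled WT floating 2 lies between 0.90 and 1.22 and the array labelled KO adherent 2 between -0.20 and 0.64. The positions of Asb4, Kcnq1ot1 and Grb10 are uncertain, since a group mean rests in part on arrays not above background.

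The slide held the arrays in 2 rows, each with 1 of the WT and 2 of the KO arrays of the joined comparison. Nnat differed by 1.86 and 1.33 in the first and second row, Peg10 by -2.56 and -2.08, and Plagl1 by -1.08 and -1.25. Dlk1, which did not pass, differed by -0.22 and 1.41, so its rows were opposed. With slide row as a block 5 of 33 imprinted genes passed in limma (Asb4, Inpp5f, Nnat, Peg10 and Plagl1), beside 2769 of 21463 features.

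Where a gene had more than 1 probe, the probes were compared by their differences and not by their levels. With each probe tested on its own, 16 of 53 probes in 12 genes passed (limma; background 17%). Of 14 genes with 2 or more tested probes, 11 had probes of a single sign. The second probes of Nnat (1.69, limma adjusted p = 0.0436) and Peg10 (-2.22, limma adjusted p = 0.0122) moved as the first did. Airn did not: its second probe read -2.66, -3.88 and -2.51 on the WT floating arrays labelled 1, 2 and 3, -4.74, -5.02 and -4.29 on KO floating 1, 2 and 3, and -5.16 and -2.60 on the KO adherent arrays labelled 1 and 2. None of the 4 KO arrays was above background there, and it was at least 3.93-fold lower in KO (fitted difference -2.21, limma adjusted p = 0.0103), beside -0.12 for the first probe.

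Plagl1 probes disagreed in sign. Of its 4 probes, those at -1.16 and -1.05 (limma adjusted p = 0.0125) fell, 1 at 0.55 rose (limma adjusted p = 0.0443), and 1 at -0.35 did not pass (limma adjusted p = 0.0997). All 4 probes carry the same accession, and the direction given for Plagl1 above is that of its brightest probe. A further Snrpn probe, not above background on WT floating 1 and 3, was at least 1.5-fold higher in KO (limma adjusted p = 0.0354), beside 0.07 and 0.47 for the other two. The second probes of Mkrn3 (1.30, limma adjusted p = 0.0289) and Mest (-0.66, limma adjusted p = 0.0474) passed where the brightest did not. For Ppp1r9a the probes differed by 0.18 and -0.62, and neither passed.

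**Figure D4:**
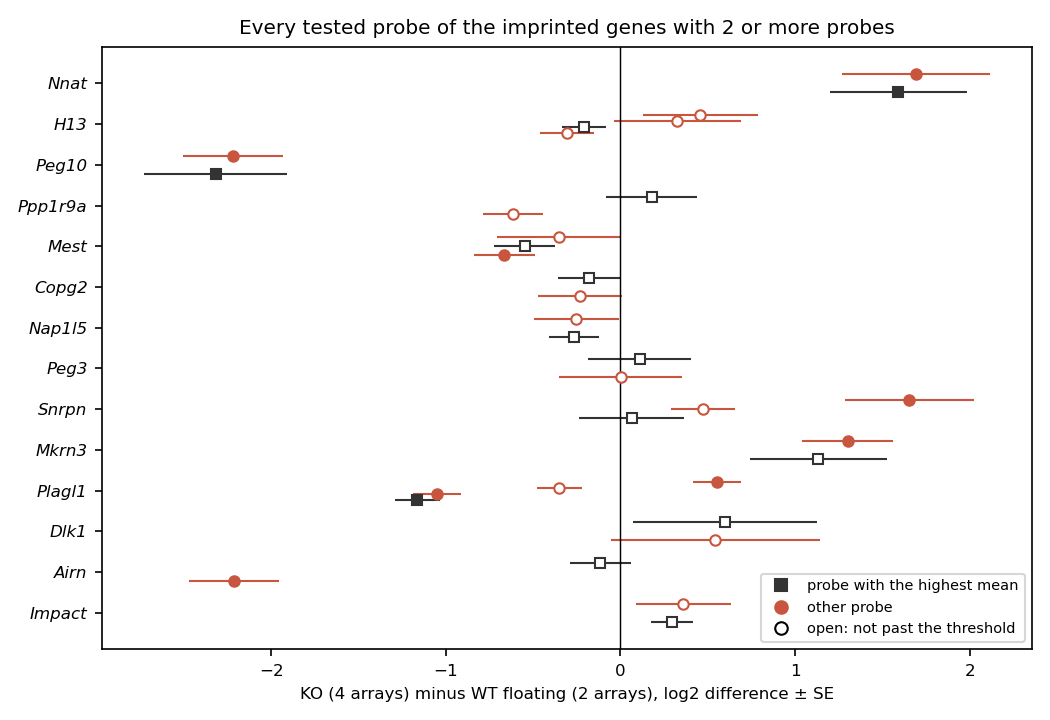
Difference between the 4 KO arrays and WT floating 1 and 3 on the log2 scale with its SE (x axis) for each tested probe of the 14 imprinted genes with 2 or more tested probes (y axis); squares are the brightest probe of a gene, circles the others, and filled symbols have a limma adjusted p under 0.05. The second Airn probe lies at -2.21 against -0.12 for the first, and Plagl1 has called probes at -1.16 and 0.55.

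Genes that keep or erase imprints were examined as a list of 25. In the joined comparison 3 of 23 tested members passed (13%, limma; background 17.3%), with a median difference of -0.02. Tet1, an enzyme that oxidises methylated cytosine, rose by 1.18 (SE 0.16, limma adjusted p = 0.0129). Dnmt3a, a de novo DNA methyltransferase, rose by 0.64 (SE 0.16, limma adjusted p = 0.0464). Zfp57 fell by 0.75 (SE 0.17, limma adjusted p = 0.0378). Trim28, its partner, differed by -0.18, and Dnmt1, the maintenance methyltransferase, by -0.54 (limma adjusted p = 0.12). The count was 0 without KO adherent 1, beside 462 of 21473 features, and 1 without KO floating 1, beside 697 of 21482 features. In the 4 other comparisons 0 members passed.

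Markers of cell types differed between the same arrays, in both directions. On the linear scale relative to the 75th percentile, the summed level of 10 neural stem markers was 278 to 287 on WT floating 1 and 3 and 493 to 853 on the 4 KO arrays. That of 6 oligodendrocyte lineage markers was 50.1 to 52.2 and 136 to 197, that of 6 astrocyte markers 69.4 to 130 and 181 to 306, and that of 10 neuron markers 15.4 to 15.5 and 15.9 to 23.3. Such sums weigh the brightest markers most, such as Fabp7 among the neural stem markers, at 7.26 to 8.62 on the log2 scale. Beside 17.3% of all features, 5 of 9 tested neural stem markers (4 higher) and 3 of 6 neuron markers (3 higher) passed in limma. So did 4 of 6 astrocyte markers (3 higher) and 4 of 6 oligodendrocyte lineage markers (3 higher). Of these, Dcx and Rbfox3 passed the probe filter only through the KO group, where they are high. Dcx was above background on neither WT array and Rbfox3 only on WT floating 1. Gfap passed the filter only through the WT group, where it is high. The called Aqp4 probe was above background on 5 arrays. The sizes of these differences are uncertain. Those called lower were Nes at -0.80, Gfap at -2.35 and Mbp at -1.56 (limma adjusted p of 0.0495, 0.0211 and 0.0363). The levels overlapped for 10 mesenchyme and meninges markers (19.3 to 22.6 in WT, 8.22 to 30.4 in KO), of which Lum, Pdgfrb and Postn were not above background on any array. They overlapped too for choroid plexus (17.2 to 32.8 and 8.26 to 20.2), where Ttr was not above background on any array. Of 2 tested choroid plexus markers 1 was called, Kcnj13, with a fitted difference of 1.06 (limma adjusted p = 0.0173). Kcnj13 was not above background on WT floating 1 or 3. It passed the probe filter only through the KO group, where it is high, so the size of its difference is uncertain. The levels also overlapped for endothelium (9.61 to 11.5 and 8.11 to 11.5), with Cdh5 and Cldn5 not above background. Those of microglia overlapped as well (2.04 to 2.18 and 1.17 to 2.38), with Aif1, Cx3cr1, Ptprc and Tyrobp not above background. The part of these markers in the differences of the imprinted genes was not tested.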

How the data were processed

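RNA was measured on 8 single-colour (Cy3) Agilent arrays of mouse neurospheres. The deposited scanner files hold spot intensity on a linear scale, made by Agilent Feature Extraction 11.0.1.1 per the file headers. The submitters' processing notes give 9.1.3.1. The table of values that the authors deposited holds the same processed intensity (100% of values within 0.01%), so it is linear and not normalized between arrays.

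Log2 values were taken from the processed signal, and the 75th percentile of each array over non-control spots was subtracted. Spots marked as outliers were left out, and 200 probes without a value on 1 or more arrays were not tested in the fits concerned. Of 55681 probes, 27235 matched a gene of the RefSeq GRCm38.p6 table by accession. Tested probes were well above background on all arrays of 1 or more groups in a fit, and each gene was represented by its probe of highest mean. Where no array of the dimmer group was above background, the fold is a lower bound: the brighter group's mean over that of the dimmer group, whose arrays each count at no less than the faintest signal well above background. Fits used lmFit, contrasts and two-sided eBayes of limma 3.58.1 (R 4.3.3) with Benjamini-Hochberg adjustment over all features of a fit and a threshold of 0.05. The 3 comparisons as labelled came from 1 fit of 8 arrays and share arrays. The comparison of floating cultures without the 2 discordant arrays came from a fit of 6 arrays in 3 groups, and the joined comparison from a fit of those 6 arrays in 2 groups. The fits were tested on simulated data.

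The members, gene lists, tests and the joined comparison were chosen with earlier results of these data known, and testing every probe singly was added after the values were seen. Values on each array are given for called genes, for measurable members of reciprocal pairs and for the 4 most variable members. Groups and replicate numbers come from the sample labels. Deviations of same-numbered floating arrays from their labelled group means correlated across genes at 0.103 for number 1, 0.590 for 2 and 0.335 for 3. This is counted as pairing here, weakly so for number 1, and the main fits did not include it. The array labelled WT floating 2 was among these arrays, so pairing and its discordant Cbx3 level cannot be told apart in these values. The labels describe each sample as 1 embryonic brain.

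Other settings tried were quantile normalization, scaling to the median of detected probes, normexp with an offset of 50 (on the median spot signal, since no mean spot signal was used here), the authors' table, other probe filters, the mean of a gene's probes, trend and robust eBayes, replicate and slide-row blocks, fits of the compared groups alone, and leaving out each array.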

Additional observations from a re-analysis of the deposited data

Results flagged for a closer look

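In the 4 KO arrays of the joined comparison, 33 genes were checked for a single array far from the other 3, and 2 had one by Dixon's ratio at the 95% level. Chance alone gives such an array for about 1 in 20 genes. Ascl2 read -1.64 on KO floating 2, while the other 3 KO arrays read -0.17 to 0.04. Peg13 read 2.67 on KO floating 2, while the other 3 read 1.85 to 1.92. For Ascl2 the array labelled WT floating 2 had a like value of -1.68, and for Peg13 it read 2.27.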

How the results depend on the processing

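As labelled, 0 imprinted genes passed in limma in all 3 comparisons under each setting run, leave-one-out included. In the joined comparison, with 8 of 33 imprinted genes, the count over all features moved with the setting too. Quantile normalization gave 4 of 33 (3061 of 21463 features) and no filter on dim probes 0 of 43 (179 of 48960). A filter for probes above background on every array gave 5 of 29 (3373 of 18898). Slide row as a block gave 5 of 33 (2769 of 21463). The set of features tested with all 8 arrays gave 5 of 32 (2998 of 22647). Leaving out 1 KO array gave 1 (462 of 21473 features) to 10 (5026 of 21909 features). Counts of 7 to 12 came from the settings not named. Normexp gave 8 (7 shared, Mkrn3 in place of Kcnq1ot1), beside 3469 of 21463 features. Scaling to the median of detected probes gave 8 (8 shared), beside 3896 of 21463 features. With the replicate block 9 passed, the 8 and Ascl2, beside 4128 of 21463 features. The block changed no other count of these imprinted genes. Without the 2 discordant arrays and with cultures apart, 0 passed. With the filter for every array 1 did (Plagl1), beside 129 of 18898 features. With trend and robust eBayes 1 did (Plagl1), beside 455 of 25962 features. Leaving out 1 KO array gave 0 to 1, and the 1 (Plagl1) came without KO adherent 1, beside 462 of 21473 features. For imprint control genes the comparison with cultures apart gave 1 with trend and robust eBayes (455 of 25962 features). Their joined count of 3 became 0 with no filter (179 of 48960 features) and 0 to 4 on leaving out 1 KO array. Other imprinted genes, at 0 in both, reached 1 with normexp and 1 with the replicate block in the joined comparison, with 0 to 2 and 0 to 1 on leaving out 1 array. Direction and call were followed for the 8 called genes in the 3 comparisons of KO with WT that hold floating KO arrays. There 344 values kept direction and side of the threshold, 48 kept direction but lost the call, 3 gained one and none changed sign. The run without KO adherent 1 is the same fit in both comparisons without the discordant arrays, and it enters this tally under each. All 48 losses were in the joined comparison, the only one with these genes called. In the others, keeping the side meant staying uncalled. In the joined comparison Kcnq1ot1 lost the call in 11 runs and kept it in 5. Losses and keeps were 8 and 9 for Igf2r, 7 and 8 for Grb10, and 6 and 11 for Nnat. They were 5 and 12 for Peg10 and Inpp5f, 4 and 12 for Asb4, and 2 and 15 for Plagl1. The cause of these changes was not tested. Genes near the scanner background, such as Grb10, Asb4 and Kcnq1ot1, have the least certain folds, and with 2 WT arrays a single array sets much of each result.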

Other observations

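A further list of 32 imprinted genes outside the 45 had 16 tested members in the joined comparison. In limma 0 of them passed (background 17.3%). At an unadjusted p under 0.05 in limma there were 5 of the 16, beside 8102 of 21463 features. The median difference of the 16 was 0.10. Sfmbt2, a polycomb-related gene with a paternal transcript in the placenta, had the largest difference at 2.24 (limma adjusted p = 0.0685), and Pon3, a paraoxonase of the Peg10 neighbourhood, differed by 1.16 (limma adjusted p = 0.0629). Both were named after their values were seen.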
